A study of Mus musculus with 14 samples.

Results

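The IFIT and OAS genes are antiviral effectors whose transcripts are induced by interferon, and 9 of them were followed here across 14 arrays of a mouse mammary epithelial cell line. The set was 3 IFIT genes (Ifit1, Ifit2 and Ifit3) and 6 OAS genes (Oas1a, Oas1g, Oas2, Oas3, Oasl1 and Oasl2). Members were the probe sets whose platform annotation names 1 of these genes and no other. That gave 8 probe sets for 8 of the 9 genes, out of 45101 probe sets in the table. None named Oas1g alone, so Oas1g was not analysed here. Of the 8 probe sets, 6 varied enough over the arrays to be tested (Ifit1, Ifit2, Ifit3, Oas1a, Oas2 and Oasl2), and Oas3 and Oasl1 did not.

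SCp2 cells, 1 established line of mouse mammary epithelium, were plated in 35 mm dishes at 4 densities that the labels write as 25K, 50K, 100K and 250K, and kept for 3 days in DMEM with fetal calf serum. Dishes received MMP3, a matrix metalloproteinase that cells release and that cleaves matrix and cell surface proteins, or served as controls. Experiment A had 3 MMP3 and 3 control dishes, 1 of each agent at 50K, 100K and 250K, and experiment B had 4 MMP3 and 4 control dishes, 1 of each agent at 25K, 50K, 100K and 250K. All dishes were of the same line and carried no stated allele, and the dose of MMP3 is not given in the sources used here. Nothing in the labels says more of how the dishes within an experiment were set up, so p-values speak only for the spread among these dishes, which may be technical.

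Interferons bind cell surface receptors, and the signal switches on a shared set of antiviral genes. IFIT proteins bind RNA or partner proteins and hold back the translation of viral RNA. OAS enzymes sense double-stranded RNA and make short oligoadenylates that activate the ribonuclease RNase L, which degrades RNA in the cell. In epithelial cells with no interferon signal these genes are usually kept low.

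The values are relative log2 expression, with each probe set's median over the 14 arrays at 0. They show how an array stands against the others for 1 probe set, but hold no level, so probe sets were not compared with each other by level and signal over background is not known. In a whole dish, more transcript per cell and more cells that carry it cannot be told apart.

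Before the members are described, 4 arrays of experiment B need naming, because they went against their labels by the measure used here. Each array of B was taken, gene by gene, as its difference from the mean of all arrays of B. Over 11806 genes that are not members, these differences were correlated with the MMP3 effect of experiment A. The sign of r tells only on which side of the mean of B an array stood. The r was -0.73 for the array labelled MMP3 at 25K and -0.40 for that labelled MMP3 at 100K. It was 0.69 and 0.73 for the arrays labelled control at 50K and control at 250K. The other arrays of B followed their labels, with 0.74 for MMP3 at 50K, 0.47 for MMP3 at 250K, -0.42 for control at 25K and -0.66 for control at 100K. The sign went with density, positive for both agents at 50K and 250K and negative for both at 25K and 100K. These are correlations across genes, which are not independent replicates. Labels were used as given. The fits of experiment A use none of these arrays, but the choice of probe sets to test does, since it rests on the SD over all 14.

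Ifit1, Ifit3 and Oas1a shared one pattern, with the same 7 arrays high and the same 7 low. The high arrays were the 3 MMP3 arrays of experiment A and, in experiment B, both agents at 50K and at 250K. The low arrays were the 3 control arrays of A and, in B, both agents at 25K and at 100K. Oasl2 was clearly high on 3 of those arrays, all of experiment B. Ifit2, Oas2, Oas3 and Oasl1 did not follow the pattern.

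**Figure D1:**
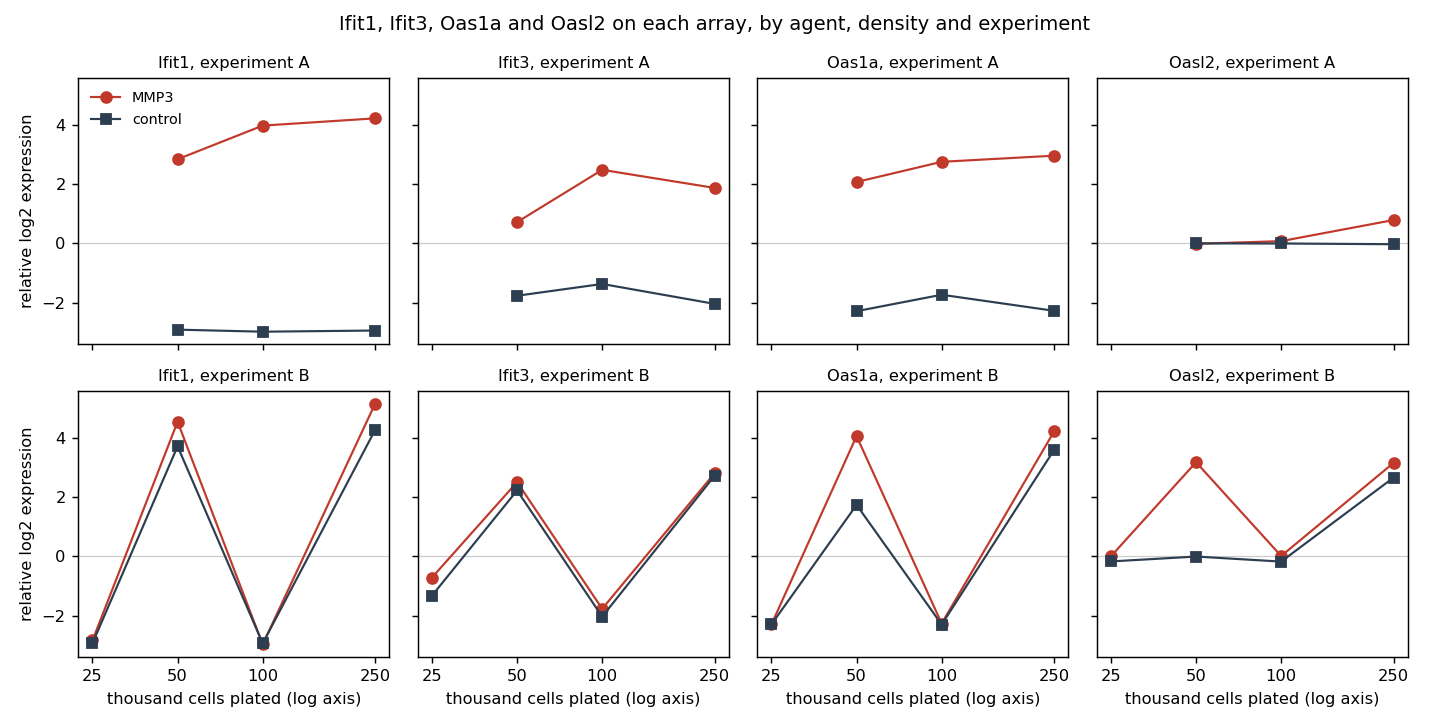
Relative log2 expression (vertical axis) of Ifit1, Ifit3, Oas1a and Oasl2 against plating density (25 to 250 for 25K to 250K, log axis), with experiment A in the upper panels and B in the lower. Each point is 1 array, red for MMP3 and dark blue for control, and lines join arrays of 1 agent. Ifit1, Ifit3 and Oas1a split the arrays into the same 7 high and 7 low ones, while Oasl2 was above 2 on 3 arrays of experiment B and at most 0.78 on the others.

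The promoters of the members that moved together, and of those that did not, are shown because interferon acts on these genes through a short promoter element. They are RefSeq windows of build GRCm38.p6, from 250 bases before to 50 bases after a start site, written on the strand of the gene. That site is the outer end of the annotated gene for Ifit1 and Oas1g and lies inside the gene for the others, by 410 bases for Ifit3, 19 for Oas1a, 25 for Oas3, 97 for Oasl1, 8 for Oasl2, and 144 and 538 for the 2 windows of Ifit2. Distances below are counted from the site of each window. Capitals mark matches to GAAANNGAAA, a core of the interferon-stimulated response element, read on both strands, so that a match on the opposite strand appears as TTTCNNTTTC. Ifit1, Ifit3 and Oas1a are the 3 members with the shared pattern. Oas1g is the near copy of Oas1a, Oas3 stayed flat, and Oasl2 varied over the arrays.
Ifit1, chr19:34640639-34640938, plus strand: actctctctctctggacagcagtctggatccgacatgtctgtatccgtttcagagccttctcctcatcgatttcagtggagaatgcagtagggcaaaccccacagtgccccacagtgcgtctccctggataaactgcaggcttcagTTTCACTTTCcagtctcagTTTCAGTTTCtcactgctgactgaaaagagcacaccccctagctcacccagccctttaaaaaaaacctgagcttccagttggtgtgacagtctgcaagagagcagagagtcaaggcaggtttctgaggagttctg
Ifit3, chr19:34583279-34583578, plus strand: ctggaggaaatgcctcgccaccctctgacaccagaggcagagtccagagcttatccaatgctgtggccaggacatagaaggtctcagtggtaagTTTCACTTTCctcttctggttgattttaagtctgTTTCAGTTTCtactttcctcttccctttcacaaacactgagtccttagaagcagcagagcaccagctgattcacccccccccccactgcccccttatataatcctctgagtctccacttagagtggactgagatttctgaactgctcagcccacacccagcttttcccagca
Oas1a, chr5:120907476-120907775, minus strand: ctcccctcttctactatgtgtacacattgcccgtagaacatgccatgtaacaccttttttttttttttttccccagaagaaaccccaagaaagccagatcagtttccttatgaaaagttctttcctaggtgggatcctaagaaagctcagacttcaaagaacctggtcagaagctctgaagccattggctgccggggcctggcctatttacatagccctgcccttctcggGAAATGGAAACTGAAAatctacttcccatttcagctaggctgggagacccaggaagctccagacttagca
Oas1g, chr5:120887564-120887863, minus strand: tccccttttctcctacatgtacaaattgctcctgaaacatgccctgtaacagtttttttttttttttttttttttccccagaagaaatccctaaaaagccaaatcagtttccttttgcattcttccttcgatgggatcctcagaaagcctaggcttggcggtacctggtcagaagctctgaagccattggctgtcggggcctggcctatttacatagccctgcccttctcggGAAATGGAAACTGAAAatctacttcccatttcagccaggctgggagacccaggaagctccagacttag
Oas3, chr5:120777610-120777909, minus strand: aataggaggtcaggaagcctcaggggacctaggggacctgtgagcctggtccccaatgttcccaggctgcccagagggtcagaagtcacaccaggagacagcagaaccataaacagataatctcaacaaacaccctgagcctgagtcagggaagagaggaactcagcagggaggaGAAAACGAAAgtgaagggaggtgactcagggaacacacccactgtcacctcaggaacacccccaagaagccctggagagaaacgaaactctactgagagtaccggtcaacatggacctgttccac
Oasl2, chr5:114896684-114896983, plus strand: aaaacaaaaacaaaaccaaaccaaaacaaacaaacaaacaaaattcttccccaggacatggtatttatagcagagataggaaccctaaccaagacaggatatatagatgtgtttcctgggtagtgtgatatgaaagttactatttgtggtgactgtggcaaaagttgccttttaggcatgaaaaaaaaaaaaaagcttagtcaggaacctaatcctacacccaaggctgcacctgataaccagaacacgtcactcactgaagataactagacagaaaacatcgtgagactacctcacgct

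The 3 members with the shared pattern each had 2 matches in their windows. In Ifit1 both lay on the opposite strand, at 104 to 95 and 85 to 76 bases before the start site. In Ifit3 they lay on the opposite strand too, at 156 to 147 and 122 to 113 bases before the site of that window, which places them inside the outer bounds of the gene. In Oas1a they overlapped each other on the strand of the gene, at 20 to 11 and 14 to 5 bases before the site. Oas1g had the same overlapping pair at 18 to 9 and 12 to 3 bases, and its window matched that of Oas1a at 85.3% of aligned positions.

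Oas3 had 1 match at 75 to 66 bases before its site. The windows of Ifit2, Oasl1 and Oasl2 held none, and Oas2 has no window here. Thus 5 of 8 members with a window held a match, against 3.44% of 32851 mouse promoter windows of the same length, and 0.225% of all windows held 2 or more. The members are counted as genes, of which Ifit2 has 2 windows, and the share over all is of windows. The 5 include Oas1g, whose window is a near copy of that of Oas1a, so these 2 are not separate cases. A match is a description of these letters. Oasl2 varied over the arrays with no match in its window, and Oas3 had a match and stayed flat.

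**Figure D2:**
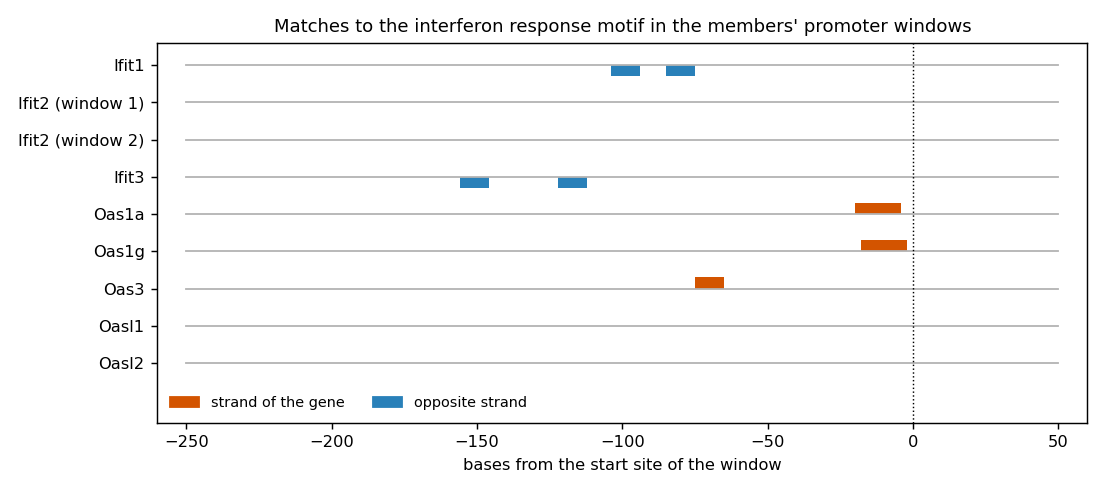
Positions of matches to GAAANNGAAA (bars) in the promoter windows of the members, in bases from the start site of each window (horizontal axis, dotted line at the site). Orange bars lie on the strand of the gene and blue bars on the opposite strand. The bars of Oas1a and Oas1g each hold 2 overlapping matches, and Ifit2, Oasl1 and Oasl2 have none.

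The 3 IFIT genes lie within 0.1 Mb of each other on chromosome 19 and the 6 OAS genes within 6.01 Mb on chromosome 5, in the same annotation. The shared pattern took members from both places. It also left out neighbours, since Ifit2 at chr19:34550550-34576534 lies beside Ifit3 at chr19:34583119-34588982, and Oas2 and Oas3 lie in the same OAS cluster as Oas1a.

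Ifit1, which binds viral RNA that lacks the host's cap methylation and blocks its translation, had the widest range of the members. Its probe set, 1450783_at, read 2.83, 3.96 and 4.21 on the MMP3 arrays of experiment A at 50K, 100K and 250K, against -2.91, -2.98 and -2.94 on the control arrays. In experiment B it read -2.83, 4.53, -2.97 and 5.15 on the MMP3 arrays from 25K to 250K, against -2.93, 3.71, -2.93 and 4.26 on the control arrays. All MMP3 arrays of A stood above all controls of A, whereas the agents overlapped in B and the density of the dish separated high from low. The 7 low arrays lay within 0.145 of each other, the 7 high ones spread over 2.32, and the gap between them was 5.66.

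Ifit3, which in human cells binds IFIT1 and stabilises it, followed Ifit1 over a smaller range. Probe set 1449025_at read 0.71, 2.48 and 1.86 on the MMP3 arrays of A, against -1.77, -1.37 and -2.04 on the control arrays. In B it read -0.71, 2.50, -1.77 and 2.80 on the MMP3 arrays from 25K to 250K, against -1.32, 2.22, -2.03 and 2.72 on the control arrays. The gap between its high and low arrays was 1.43, so the split was less clear than that of Ifit1, and the lowest of the high arrays was MMP3 at 50K of A.

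Oas1a encodes an oligoadenylate synthetase. Its probe set, 1424775_at, read 2.06, 2.74 and 2.95 on the MMP3 arrays of A, against -2.29, -1.73 and -2.27 on the control arrays. In B it read -2.29, 4.05, -2.26 and 4.21 on the MMP3 arrays from 25K to 250K, against -2.29, 1.73, -2.30 and 3.59 on the control arrays. The 4 low arrays of B were within the range of the controls of A or just below it, and the gap between high and low arrays was 3.46. Whether this probe set also takes up Oas1g transcript was not tested.

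Oasl2, an OAS family member that in mice has synthetase activity, was high on fewer arrays. Probe set 1453196_a_at read -0.02, 0.07 and 0.78 on the MMP3 arrays of A, against 0.00, -0.01 and -0.03 on the control arrays. In B it read 0.00, 3.17, 0.01 and 3.15 on the MMP3 arrays from 25K to 250K, against -0.17, -0.01, -0.18 and 2.65 on the control arrays. The array labelled control at 50K of B, high for Ifit1, Ifit3 and Oas1a, was not high for Oasl2. The 3 high arrays stood 1.87 above the next highest, MMP3 at 250K of A.

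Among the 7 arrays that were high for Ifit1, Ifit1, Ifit3 and Oas1a also varied together in degree. Pearson's r was 0.85 between Ifit1 and Ifit3, 0.86 between Ifit1 and Oas1a, and 0.80 between Ifit1 and Oasl2. It was 0.94 between Oas1a and Oasl2, 0.65 between Ifit3 and Oas1a, and 0.63 between Ifit3 and Oasl2. Oasl2 was high on only 3 of these 7 arrays, so its r values mainly restate that split. Among the 7 low arrays r ran between -0.50 for Ifit1 with Oas1a and 0.61 for Ifit1 with Ifit3. These are descriptions over 7 arrays of 2 experiments that share agent, density and processing. No r over all 14 is given for pairs of members, since it would restate the split.

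Ifit2, an IFIT protein that in mice restricts infection of the brain by several viruses, moved little and not with the others. Probe set 1418293_at read 0.00, 0.29 and -0.02 on the MMP3 arrays of A, against 0.02, 0.03 and -0.12 on the control arrays. In B it read -0.09, 0.22, -0.54 and -0.31 on the MMP3 arrays from 25K to 250K, against 0.00, 0.29, -0.05 and 0.28 on the control arrays. The agents overlapped in both experiments, although the MMP3 array was below its control at each of the 4 densities of B.

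The other 3 OAS probe sets were nearly flat. Oas3, which senses long double-stranded RNA (1425374_at), stayed between -0.02 and 0.02, with an SD of 0.010 over the 14 arrays. Oasl1, which in mice holds back translation of Irf7 mRNA (1424339_at), stayed between -0.06 and 0.03, with an SD of 0.022. Oas2, a larger oligoadenylate synthetase (1425065_at), read 0.343 on the MMP3 array at 50K of B and stayed between -0.01 and 0.02 on the other 13.

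These flat members moved with the large body of flat probe sets on the array. Their values correlated with the mean of 10240 flat probe sets (SD under 0.02) at 0.994 for Oas3 and 0.90 for Oasl1 over 14 arrays, and at 0.984 for Oas2 over the 13 arrays without MMP3 at 50K of B. That mean itself ran from -0.02 to 0.03, so the small differences between agents in these 3 probe sets were of the size of a shift shared by unrelated probe sets. Oas2 passed the filter on variation through that 1 array, and its SD over the others was 0.009. Tested without the filter, MMP3 minus control in A was -0.012 for Oas3 (limma adjusted p = 0.261) and -0.017 for Oasl1 (adjusted p = 0.241). With no level in the values, a flat probe set may lie near background or at a steady level, and the data do not say which.

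**Figure D3:**
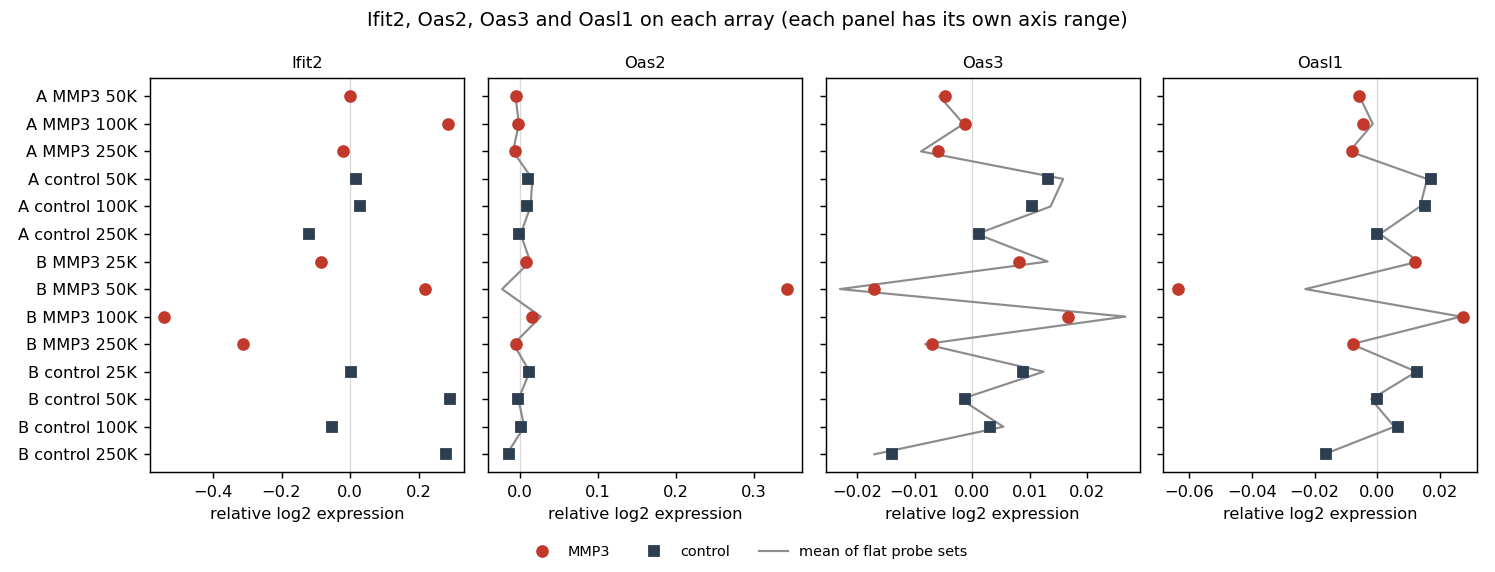
Relative log2 expression (horizontal axis) of Ifit2, Oas2, Oas3 and Oasl1 on each of the 14 arrays (rows). Points are arrays, the grey line is the mean of 10240 flat probe sets, and each panel has its own axis range. Oas3 follows the grey line within 0.02, and Oas2 leaves it on 1 array, MMP3 at 50K of experiment B, at 0.343.

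In experiment A, Ifit1, Ifit3 and Oas1a rose with MMP3, and no member passed as lower. The test was limma's moderated test for each probe set, in a model with agent, log2 density and their product, with Benjamini-Hochberg adjustment over 27022 probe sets and a threshold of 0.05. Ifit1 averaged 3.67 ± 0.73 on MMP3 arrays and -2.94 ± 0.04 on control arrays (SD, n = 3 each), a rise of 6.61 on the log2 scale (SE 0.20, limma adjusted p = 0.0141) or 97.6-fold. Oas1a averaged 2.59 ± 0.46 on MMP3 arrays and -2.10 ± 0.32 on control arrays, a rise of 4.68 (SE 0.23, limma adjusted p = 0.0145) or 25.7-fold. Ifit3 averaged 1.68 ± 0.89 on MMP3 arrays and -1.73 ± 0.34 on control arrays, a rise of 3.41 (SE 0.50, limma adjusted p = 0.0339) or 10.6-fold. MMP3 was higher in all 3 pairs of matched density for each of these 3 genes.

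The other tested members did not pass in experiment A. Oasl2 differed by 0.29 (SE 0.10, limma adjusted p = 0.141), Ifit2 by 0.11 (SE 0.12, adjusted p = 0.543) and Oas2 by -0.01 (SE 0.04, adjusted p = 0.86). Thus 3 of 6 tested members passed, against 19.9% of all tested probe sets in either direction and 11% in the upward direction. The median change was 1.85 for the 6 tested members and -0.03 for all tested probe sets. It lies between the 3 members that passed, at 3.41 or more, and the 3 that did not, at 0.29 or less. The 2 members below the filter, Oas3 at -0.012 and Oasl1 at -0.017, are not in that median. The MMP3 arrays all stood above the control arrays for the same 3 members, as they did for 16.7% of all tested probe sets. They all stood below the control arrays for Oas2, Oas3 and Oasl1, by amounts of the size of the shift shared by flat probe sets. The share of all tested probe sets with that order was not counted, so it is not read as a result. The fit of A has 2 residual degrees of freedom, and without any 1 of its 6 arrays no member and no other probe set passed, with adjusted p from 0.0645 to 0.115 for Ifit1. With matched pairs as a block the same 3 members passed, against 11.6% of all tested probe sets. Without the filter on variation Ifit3 did not pass (limma adjusted p = 0.101).

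In experiment B no member passed, and no probe set at all did (0% called in limma, with 2864 at an unadjusted p under 0.05). Ifit1 averaged 0.97 ± 4.48 on MMP3 arrays and 0.53 ± 3.997 on control arrays (SD, n = 4 each), a difference of 0.44 (SE 2.72, limma adjusted p = 0.954). The 95% interval of that difference ran from -6.40 to 7.29. With each matched pair of dishes as a block it ran from -0.11 to 1 (SE 0.21, limma adjusted p = 0.341), below the rise of 6.61 in A, and again 0% of probe sets were called (5066 at an unadjusted p under 0.05). Oas1a differed by 0.74 (SE 2.09), Ifit3 by 0.31 (SE 1.59), Oasl2 by 1.01 (SE 0.95), Ifit2 by -0.31 (SE 0.19) and Oas2 by 0.09 (SE 0.12), with limma adjusted p from 0.613 to 0.944. The agents overlapped for all 6 tested members, while 9.26% of all tested probe sets had agents that did not overlap in B. The median change was 0.38 for the 6 tested members, without the 2 below the filter, and 0.02 for all tested probe sets.

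Matched pairs show the values behind that spread. For Ifit1 the MMP3 array minus its control was 0.10, 0.83, -0.03 and 0.89 at 25K, 50K, 100K and 250K, against 5.74, 6.94 and 7.15 in A at 50K, 100K and 250K. For Ifit3 the differences were 0.61, 0.28, 0.26 and 0.09 in B, against 2.48, 3.84 and 3.90 in A. For Oas1a they were 0.00, 2.32, 0.03 and 0.62 in B, against 4.35, 4.48 and 5.22 in A. For Oasl2 they were 0.17, 3.18, 0.19 and 0.50 in B, against -0.01, 0.08 and 0.82 in A. Both members of a pair were high or both low in B for Ifit1, Ifit3 and Oas1a, and for Oasl2 the pair at 50K was split.

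**Figure D4:**
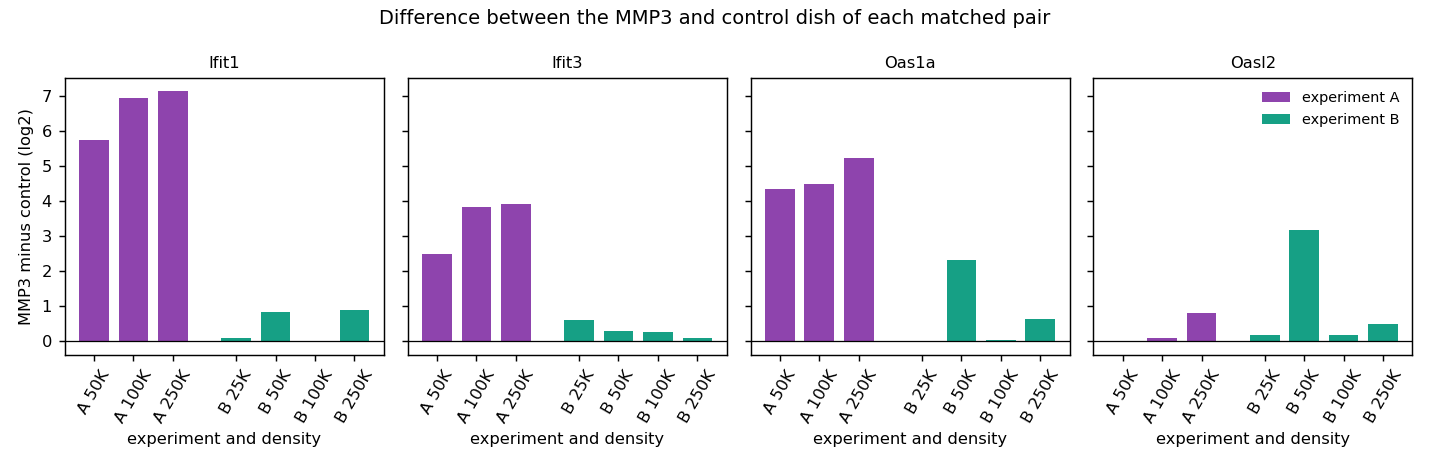
MMP3 array minus the control array of the same density and experiment, in log2 units (vertical axis), for Ifit1, Ifit3, Oas1a and Oasl2, by experiment and density (horizontal axis). Each bar is 1 pair of arrays. The pairs of experiment A lie between 5.74 and 7.15 for Ifit1 and between 4.35 and 5.22 for Oas1a, and those of experiment B lie between -0.03 and 0.89 for Ifit1.

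The difference in MMP3 effect between the experiments was given its own test over the 12 arrays of the densities that both hold. As B minus A it was -6.05 for Ifit1 (SE 3.56, limma adjusted p = 0.499), -3.69 for Oas1a (SE 2.79, adjusted p = 0.545) and -3.20 for Ifit3 (SE 2.21, adjusted p = 0.525). For Oasl2 it was 0.99 (SE 1.32, adjusted p = 0.692). No member and no other probe set passed in that model (0% called, 2692 at an unadjusted p under 0.05). It has a straight slope for density, so the order of densities in B stays in its residual spread.

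With each matched pair of dishes as a block, an alternative added after the data were seen, the differences were the same size and 3 members passed, against 4.13% of all tested probe sets. The MMP3 effect was smaller in B than in A for Ifit1 (SE 0.46, limma adjusted p = 0.0118), Ifit3 (SE 0.41, adjusted p = 0.024) and Oas1a (SE 0.63, adjusted p = 0.0402). Each of the 3 pairs of B in this test holds 1 array that went against its label. These are control at 50K, MMP3 at 100K and control at 250K. The result rests on the labels as given, and their part in it was not tested. The 95% intervals of B minus A ran from -7.18 to -4.91, from -4.21 to -2.19 and from -5.25 to -2.14. Oasl2, Ifit2 and Oas2 did not pass, with adjusted p of 0.527, 0.196 and 0.615. How many of all tested probe sets had pairs that did not overlap between experiments was not counted. That the pairs of the 3 that passed did not overlap is therefore not read as a result. With 1 of the 6 pairs left out in turn, no member passed when that pair was one of A or the pair at 250K of B, and adjusted p ran from 0.0145 to 0.0976 for Ifit1. Ifit3 did not pass without the pair at 50K of B either (adjusted p = 0.0605).

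Over both experiments, with experiment as a block, no member passed, against 2.18% of all tested probe sets. With matched pairs as a block none passed either, against 0.0111%. Ifit1 differed by 3.09 (SE 1.77, limma adjusted p = 0.457), Oas1a by 2.43 (SE 1.32, adjusted p = 0.426) and Ifit3 by 1.64 (SE 1.01, adjusted p = 0.503). Oasl2 differed by 0.70 (SE 0.56, adjusted p = 0.648), Ifit2 by -0.13 (SE 0.13, adjusted p = 0.747) and Oas2 by 0.05 (SE 0.06, adjusted p = 0.807). The median was 1.17 for the 6 tested members, without the 2 below the filter, and 0.01 for all tested probe sets.

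No straight slope on log2 plating density passed for any member or any other probe set (0% called in each experiment, limma). Density as separate levels was not tested. In A, 7287 probe sets were at an unadjusted p under 0.05 for the slope per doubling of plated cells and in B 971. In the MMP3 dishes of A, Ifit1 had a slope of 0.57 per doubling (SE 0.15, limma adjusted p = 0.403) and Oasl2 of 0.36 (SE 0.08, adjusted p = 0.403), against -0.01 for both in the control dishes. Ifit3 and Oas1a had slopes of 0.45 (SE 0.37) and 0.37 (SE 0.17) in the MMP3 dishes, against -0.14 and -0.02 in the control dishes.

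The difference of those slopes between agents did not pass either. In A it was 0.58 for Ifit1 (SE 0.21, limma adjusted p = 0.441) and 0.37 for Oasl2 (SE 0.11, adjusted p = 0.433), and 0% of probe sets were called, with 3073 at an unadjusted p under 0.05. In B 0% were called for the interaction too, with 238 at an unadjusted p under 0.05. In B the values did not run in one direction with density, since 25K and 100K were low and 50K and 250K high for both agents. A slope describes that order poorly, and that of Ifit1 was 1.51 per doubling (SE 1.11).

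Genes whose profile was most like the members' were sought among 11806 genes that are not members, by Pearson's r over the 14 arrays with the mean of the 6 tested members. The 10 nearest were Usp18 (r = 0.994), Irgm2 (0.993), Mndal (0.992), Parp14 (0.989), Rtp4 (0.987), Parp12 (0.986), Crb3 (0.985), Igtp (0.985), Gbp7 (0.984) and Xaf1 (0.983). Usp18 removes the ubiquitin-like protein ISG15 and dampens interferon receptor signalling, Irgm2, Igtp and Gbp7 are interferon-induced GTPases, and Parp12 and Parp14 are ADP-ribosyltransferases. Rtp4 and Xaf1 are known as interferon-induced genes too. Crb3 is a polarity protein of the apical membrane of epithelial cells. All 10 had the same 7 arrays above the others, and Usp18 read at least 2.83 on those and at most -2.83 on the rest. The 10 were chosen by r with a mean that splits the arrays this way, so the shared split is no separate result. The members themselves correlated with their mean at 0.996 for Oas1a, 0.988 for Ifit1, 0.982 for Ifit3, 0.77 for Oasl2, 0.44 for Ifit2 and 0.31 for Oas2. Each member is part of that mean, and those with the widest range weigh most in it, so these r are raised by construction.

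**Figure D5:**
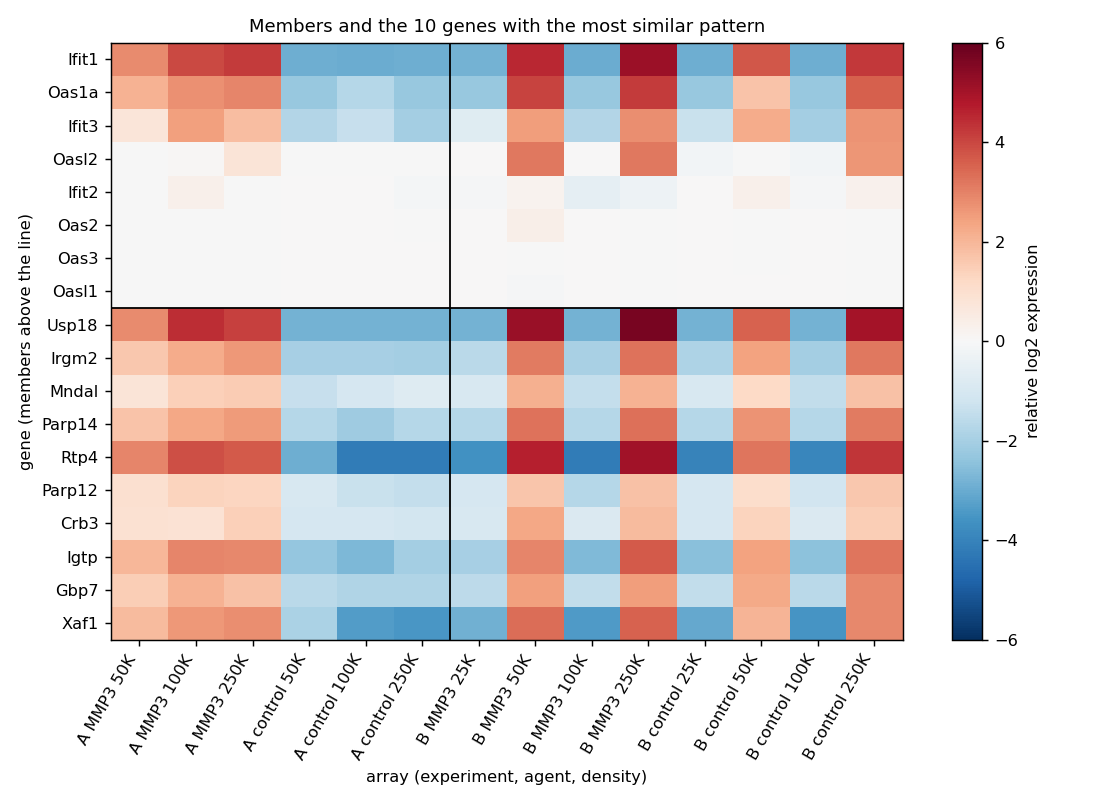
Relative log2 expression (colour) of the member probe sets and of the 10 genes with the most similar profile (rows) on each of the 14 arrays (columns). The 10 genes share the 7 high and 7 low arrays of Ifit1, Ifit3 and Oas1a, and Ifit2, Oas2, Oas3 and Oasl1 do not.

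Other genes of the pathway were counted in experiment A, with the tested probe set of largest variation standing for each gene. Of all tested probe sets 19.9% passed there. That share counts probe sets and not genes, so it is not a like measure for the lists. A share of genes in the same fit was not counted, so no list count is read as above or below it. The number of genes that passed in a separate fit with 1 probe set a gene is given in the closing section, with the genes tested. Of the interferon ligands and receptors, 6 of 15 genes were tested, all of them receptor chains, and 3 rose and 0 fell. Il10rb rose by 1.53, Ifngr2 by 1.16 and Ifngr1 by 0.51, and the type I receptor chain Ifnar2 differed by 0.47 without passing. The list's median change was 0.49, against -0.03 for all tested probe sets.

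Of the signalling genes 12 were tested, 5 rose and 1 fell, and the median was 0.32. Usp18 rose by 6.63 (SE 0.38), Irf9, a transcription factor of the interferon response, by 2.58 and Irf1, another transcription factor, by 1.62, while Socs3, a feedback inhibitor of cytokine signalling, fell by 1.24. Of 11 tested sensors and adaptors 3 rose and 0 fell, with a median of 0.20. These were Ifih1, a cytosolic sensor of double-stranded RNA, by 3.01, Tlr3, an endosomal one, by 1.64, and the adaptor Myd88 by 0.46.

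Closest to the OAS enzymes, the partner list held 4 tested genes, of which 2 rose and 1 fell, with a median of 0.14. Eif2ak2, the double-stranded RNA kinase PKR, rose by 1.80 and Adar, which edits double-stranded RNA, by 0.67. Abce1, known in human cells as an inhibitor of RNase L, fell by 1.19. Pde12, which in human cells degrades oligoadenylates, differed by -0.39 in A without passing. Over both experiments, where 2.18% of all tested probe sets passed, Pde12 fell by 0.56 (SE 0.13, limma adjusted p = 0.0488). It was the only gene of these pathway lists that passed there. A single call close to the threshold is not read as a result about the lists.

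Of the further IFIT and OAS genes 3 were tested and 0 passed, with Oas1c at 0.34, Oas1e at 0.22 and Ifit1bl2 at 0.17 in experiment A. The other antiviral effectors gave the highest share, with 17 of 20 tested genes higher, 0 lower and a median of 1.58. Xaf1, which promotes cell death, rose by 5.33, Parp14 by 4.04, Rsad2, which makes a chain-terminating nucleotide, by 3.92, and Bst2, which tethers budding virus, by 3.32. In experiment B no gene of any of these lists passed, where 0% of probe sets did, and the list medians ran from -0.18 to 0.58.

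Markers of other cell types and signs of RNA quality are given beside these results, and their part in them was not tested. Of 7 macrophage and leukocyte markers with a probe set 3 were tested in A and 0 passed, and their mean ran from -0.03 to -0.01 on MMP3 arrays and from 0.02 to 0.26 on control arrays of A. In B that mean ran from 0.06 to 0.66 on MMP3 arrays and from -0.02 to 0.10 on control arrays. The tested markers did not move together there. On the MMP3 array at 100K of B, Cd68 read 4.61, Cd14 -0.17 and Csf1r 0.035. Of the epithelial markers 4 were tested in A, and Epcam and Cdh1 rose by 1.18 and 0.89 while Krt5 fell by 1.03. The mean of the 6 epithelial markers in B ran from -0.91 to 0.30 on MMP3 arrays and from 0.01 to 0.07 on control arrays. Krt14 read -3.93 on the MMP3 array at 100K of B. In A that mean ran from 0.02 to 0.12 on MMP3 arrays and from -0.08 to 0.04 on control arrays. The fibroblast marker Pdgfra differed by -0.91 without passing, and no endothelial marker was tested. No marker passed in B. With no level in the values, the presence or absence of a marker could not be judged.

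The arrays of A also differed by agent in some control probe sets. The ribosomal RNA control ran from 0.88 to 1.07 on MMP3 arrays of A and from 0.72 to 0.81 on control arrays. In B it ran from -0.59 to -0.01 on MMP3 arrays and from -0.56 to 0.01 on control arrays. The 3′ minus 5′ difference of Gapdh ran from 0.04 to 0.17 on MMP3 arrays and from -0.03 to 0.03 on control arrays of A. In B the agents overlapped for it, at -0.02 to 0.06 on MMP3 arrays and -0.06 to 0.14 on control arrays. That of actin overlapped in A, at -0.145 to 0.09 on MMP3 arrays and -0.05 to 0.11 on control arrays. In B that of actin ran from -0.12 to 0.65 on MMP3 arrays and from -0.34 to 0.08 on control arrays.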

How the data were processed

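RNA from 14 dishes of SCp2 cells was measured on Affymetrix mouse arrays. The deposited table holds log2 expression values that the authors computed by RMA (version not given), per the submitters' processing notes. The log base is not stated; log2 is what RMA gives, and every fold rests on it. Each probe set's median over the 14 arrays was 0 in the values, a centring that is not stated. Array medians lay between -0.024 and 0.03. Precision is limited by how many arrays there are, and signal over background is unknown. Other processing is not given in the sources used here.

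Agent, density and experiment came from the labels. Of 45037 probe sets that are not controls, 34945 had 1 gene symbol, 932 several and 9160 none in the platform annotation. Symbols were updated through Entrez for 34741. Probe sets with an SD over the 14 arrays at or above the 40th percentile (0.049) were tested, 27022 in all, by lmFit and eBayes of limma 3.58.1 (R 4.3.3). P-values were adjusted by Benjamini-Hochberg over all of them, with a threshold of 0.05. Models had agent, centred log2 density and their product, within A, within B, or over both with experiment as a block. A separate model on the 12 arrays of shared densities tested whether the MMP3 effect differed between experiments. Tables were handled in Python 3.11.15. The steps were tested on simulated data.

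The experiment letters pair the arrays by the labels. As a check, each array's deviation from its group mean was correlated with that of the other arrays of its experiment, and r averaged 0.052 over 15 pairs (range -0.645 to 0.636).

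Named genes were every member, up to 4 genes of each list by the largest change in experiment A among those that passed (or, where fewer passed, by the smallest p), and the 10 genes with the nearest profile. The members and the lists (interferon ligands and receptors, signalling, sensors, OAS partners, further family genes, other antiviral effectors and cell type markers) were chosen with earlier results of these data known. Alternatives were the filter, the probe set summary, quantile normalization, robust eBayes, the density terms, blocks and each array left out. Matched pairs as a block for the difference between experiments were added after the data were seen.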

Additional observations from a re-analysis of the deposited data

Results flagged for a closer look

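In 16 groups of 4 arrays (each member probe set by agent, in experiment B) 2 held an array far from the other 3. Oas2 read 0.343 on the MMP3 array at 50K of B, far from the other MMP3 arrays of B. Oasl2 read 2.65 on the array labelled control at 250K of B, far from the other control arrays of B. The MMP3 effect differed between the experiments for 3 members when matched pairs of dishes were a block. B minus A was -6.05 for Ifit1, -3.20 for Ifit3 and -3.69 for Oas1a on the log2 scale (limma adjusted p = 0.0118, 0.024 and 0.0402), and the test without that block did not pass for any of them. Each pair of B in that test holds an array that went against its label, and the labels were used as given. For the single arrays, by Dixon's test, chance alone marks about 1 in 20 such groups.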

How the results depend on the processing

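Of the 3 members that passed in experiment A, Ifit1 and Oas1a passed under every alternative run there other than leaving out an array, and Ifit3 lost its call without the filter (2 members passed then). Without any 1 array of A, which leaves 1 residual degree of freedom, the count of members called was 0 to 0, and the changes kept their sign, from 6.44 to 6.97 for Ifit1, 4.30 to 4.90 for Oas1a and 2.999 to 4.08 for Ifit3. For the difference between experiments the count was 0 as reported and 3 with matched pairs as a block, an alternative added after the data were seen. No member passed for any other comparison under any alternative run. Over all probe sets the count in A was 5379 as reported, 1853 without the filter, 2960 and 3247 at gene level by largest SD and by mean, and 3145 with matched pairs as a block. The fits at gene level held 11806 genes that are not members, beside the tested members. Over both experiments it was 589 as reported, 279 without the filter, 4 with the filter at the 60th percentile, 325 by largest SD, 1010 after quantile normalization, 3 with matched pairs as a block, and 0 to 2284 with 1 array left out. For the difference it was 0 as reported and 1116 with matched pairs as a block. With no replicate block for experiment it was 0, and the change of Ifit1 was 3.09 (limma adjusted p = 0.443). After quantile normalization Oas2 changed sign in A, with an MMP3 effect of 0.003, a slope of 0 and an interaction of -0.001. Leaving out 1 array turned the sign of 16 of 48 log2 changes, none of them called. In B the MMP3 effects then ran from -1.11 to 2.00 for Ifit1, -0.62 to 1.25 for Ifit3 and -0.60 to 2.02 for Oas1a, and that of Oas2 over both experiments from -0.001 to 0.07. The interactions in B ran from -1.50 to 1.59 for Ifit1, -1.30 to 0.98 for Ifit3, -1.29 to 1.27 for Oas1a, -0.136 to 0.011 for Oas2 and -0.79 to 0.61 for Oasl2. Those in A ran from -0.17 to 0.35 for Ifit2, -0.32 to 1.90 for Ifit3 and -0.18 to 0.78 for Oas1a, and the slopes in A from -0.15 to 0.11 for Ifit2, -0.30 to 0.81 for Ifit3 and -0.02 to 0.46 for Oas1a. The difference between experiments ran from -0.005 to 2.03 for Oasl2. The cause of these changes was not tested, other than the fewer degrees of freedom of the smaller fits.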
